A study of Rattus norvegicus with 6 samples.

Results

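The genes described here build, cross-link and remodel the extracellular matrix of the renal cortex, or mark the fibroblasts and contractile cells that secrete it. The list held 37 genes, of which 28 were matched to at least 1 probe through a RefSeq transcript of the rat gene. Of these, 26 had a probe that all 3 arrays of a group measured well above background, and they were tested among 11748 genes. Lumican (Lum) and periostin (Postn) had a probe that was not well above background on any of the 6 arrays. No probe was matched here for Col5a2, Col6a1, Col6a3, Col12a1, Col4a2, Col15a1, Nid1, Lamb1 and Lox. Of the 26, 24 were well above background on all 6 arrays. Tenascin C (Tnc) was so on 2 of 3 corn oil arrays and 3 treated arrays, and thrombospondin 1 (Thbs1) on 3 corn oil arrays and 2 of 3 treated arrays.

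The study compared the renal cortex of 3 male Sprague-Dawley (Crl:CD(SD)) rats given corn oil with that of 3 given 2-amino-4-nitrophenol, a nitroaromatic amine used as a hair dye ingredient, at 750 mg/kg/day for 4 weeks. All animals were 5 weeks old at purchase and were kept on the same basal diet. Total RNA of each animal was labelled with Cy3 and measured on 1 single-colour Agilent oligonucleotide array. The comparison asks which transcripts of the cortex differed between dosed rats and corn oil rats.

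Interstitial fibroblasts of the kidney secrete fibrillar collagens, small proteoglycans and cross-linking enzymes, and in chronic injury transforming growth factor beta and its mediators drive these cells to a contractile, matrix-producing state. Tubules, capillaries and glomeruli rest on basement membranes, which are sheets of type IV collagen and laminin made largely by the epithelial and endothelial cells themselves. Metalloproteinases and their tissue inhibitors set how quickly both kinds of matrix are broken down.

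Of the 61657 non-control probes, the corn oil arrays measured 68.1% to 70.9% well above background and the treated arrays 61.6% to 66.3%, and no probe was saturated. Precision is limited by the number of arrays, which is 3 per group. Of the 6 arrays, 5 shared a slide and corn oil replicate 2 was alone on another. The tissue label was checked against marker genes: all 6 proximal tubule markers and all 5 podocyte markers were well above background on at least 1 group's arrays, and 2 of 3 adrenal markers were below it on every array. Of 5 liver and skeletal muscle genes listed as absent controls none was below it on every array: Alb, Apoa1 and Acta1 were well above background on all 6, Ckm on 3 corn oil and 2 treated arrays and Myh4 on 2 corn oil arrays. All 4 markers of medullary interstitium and inner medulla and 3 of 4 urothelial markers were also well above background in at least 1 group. The check therefore does not tell cortex from whole kidney. Values below are log2 signals relative to the 75th percentile of the array, so a level of 0 is the signal that 75% of the probes stay under, and levels of different genes are not comparable. In whole tissue, fewer cells of a type and less RNA per cell cannot be told apart.

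No matrix or fibroblast gene passed the threshold of the comparison, an adjusted p under 0.05 by limma, which 0.0255% of all genes tested (3 of 11748) did. At an unadjusted p under 0.05, 5 of the 26 genes had a lower level in treated cortex (Timp3, Col5a1, Col4a1, Thbs1 and Lamc1), where 7.29% of all genes did, and 0 of 26 had a higher one, where 14.3% of all genes did. Thbs1 passed the background filter through the corn oil group alone, which partly required its lower treated mean. Among the 24 genes well above background on all 6 arrays 4 were lower, against 6.82% of all genes under that filter. In either direction the share for all genes was 21.6%, so that 5 of 26 was not above the background. The balance of directions depended on the scaling: of all genes at that p, 33.8% were lower, against 22.0% with normexp background correction, 53.7% with quantile normalization and 95.3% when arrays were scaled on spike-in controls, and with the last of these 9 of the 26 genes were lower (20.9% of all genes) and 0 higher (1.02% of all genes). The 3 treated arrays lay wholly outside the 3 corn oil arrays for 6 of the 26 genes (30.2% of all genes), of which 5 were lower (10.1% of all genes) and 1 higher (20.1% of all genes). The median log2 change was 0.02 over the 26 genes and 0.04 over all genes tested, with 13 genes above 0 and 13 below. The extremes were Thbs1 at -0.72 and Tnc at 1.07, which are the dim genes named above. The plot of changes with their intervals shows how wide most of them were: for Col1a1, Tagln and Ccn2 the interval ran from a clear decrease to a clear increase.

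**Figure D1:**
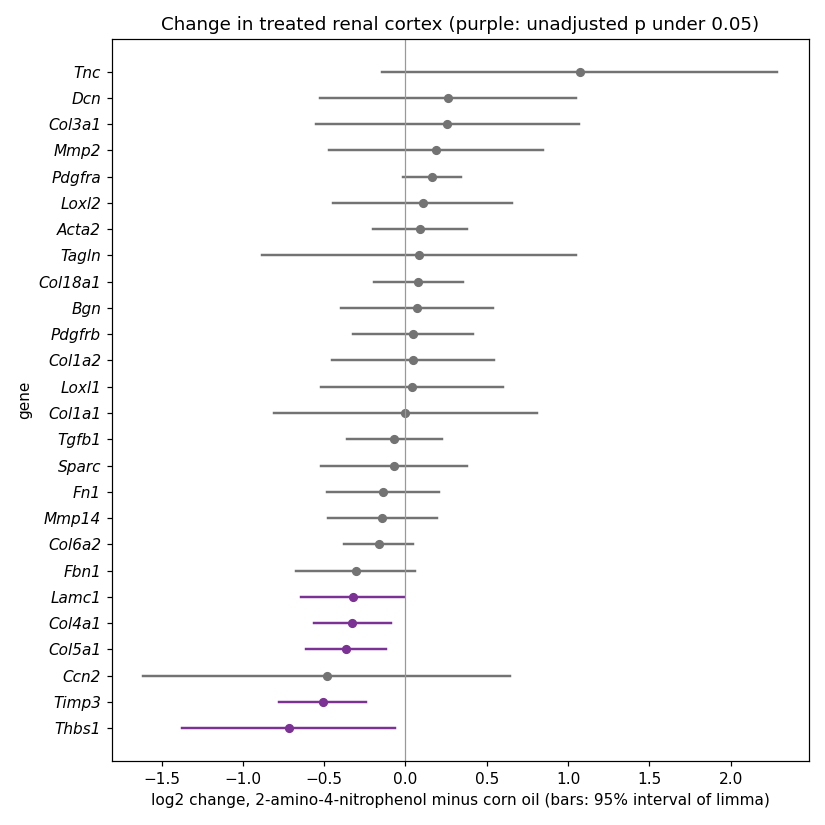
Log2 change (2-amino-4-nitrophenol minus corn oil, horizontal axis) of the 26 tested genes with the 95% interval of limma, n = 3 animals per group, where purple marks an unadjusted p under 0.05. The 5 purple genes all lie below 0, and none of the 26 passed the adjusted threshold.

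Among the growth factor and its mediators, means were lower in treated cortex without passing the adjusted test, and the animals of a group differed widely for Ccn2. Tgfb1, the ligand that drives matrix production in fibroblasts, had corn oil levels of -2.16, -2.36 and -2.16 and treated levels of -2.50, -2.20 and -2.18. The groups overlapped, and the log2 change was -0.07 ± 0.12 (SE, n = 3 per group, 95% interval -0.36 to 0.22). Connective tissue growth factor, Ccn2, is a secreted matricellular protein induced by transforming growth factor beta and by the mechanosensitive YAP and TEAD factors. Its levels were 1.70, 2.77 and 2.76 in corn oil rats and 1.03, 2.45 and 2.30 in treated rats. Replicate 1 was the low animal in each group, and the numbers are not known to pair animals. The log2 change was -0.48 ± 0.47 (95% interval -1.61 to 0.65, adjusted p = 0.569 by limma), smaller than the range within either group. Thbs1, which can release transforming growth factor beta from its latent complex, had levels of -4.46, -4.93 and -4.69 in corn oil rats and -5.41, -5.92 and -4.90 in treated rats. Its groups overlapped by the highest treated and the lowest corn oil array, and the log2 change was -0.72 ± 0.27 (adjusted p = 0.206 by limma). Thbs1 passed the filter through the corn oil group alone, so its lower treated mean was partly required by that filter. The unadjusted p, under 0.05 here, was above it in 6 of 16 alternatives, among them leaving out corn oil replicate 1 or 3 or treated replicate 1 or 2, and with normexp background correction the change was 0.04.

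Since Ccn2 had the widest range among corn oil rats of the genes well above background on all 6 arrays, the 200 bases before its start are given (RefSeq, GRCr8, chr1:22624615-22624814, minus strand), with capitals for matches on either strand to CATTCC (the core of the TEAD motif), to CCAAT (the box bound by NF-Y), to GGGCGG (the GC box) and to TATAAA (the TATA box).
Ccn2 promoter: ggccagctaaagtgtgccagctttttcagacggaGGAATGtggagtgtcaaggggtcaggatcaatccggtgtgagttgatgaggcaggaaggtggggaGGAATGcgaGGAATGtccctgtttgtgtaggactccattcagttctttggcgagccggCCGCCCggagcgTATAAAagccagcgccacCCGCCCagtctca
It held 3 matches to CATTCC, all on the reverse strand, with first bases at -166, -101 and -92 relative to the start, and 1 TATAAA. Of 33469 RefSeq rat promoters, 9.74% had at least 1 CATTCC in the same window and 0.0508% had 3 or more. These matches describe the letters and were not tested as sites.

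The interstitial collagens did not move together between groups. Col1a1, the alpha 1 chain of type I collagen, had corn oil levels of 1.22, 0.55 and 1.31 and treated levels of 0.41, 1.53 and 1.13, with a log2 change of -0.0016 ± 0.33 (95% interval -0.81 to 0.81). Its partner chain Col1a2 had corn oil levels of 3.44, 3.31 and 3.44 and treated levels of 3.01, 3.83 and 3.49, with a change of 0.05 ± 0.20. Type III collagen, Col3a1, had corn oil levels of 1.68, 1.13 and 1.54 and treated levels of 1.02, 2.30 and 1.79, with a change of 0.26 ± 0.33 (95% interval -0.55 to 1.07). In each of these 3 genes treated replicate 1 was the lowest of the 6 arrays and treated replicate 2 the highest, so that the treated animals enclosed the corn oil animals.

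Type V collagen nucleates type I fibrils, and its chain Col5a1 was different: the levels were -0.49, -0.70 and -0.61 in corn oil rats and -1.10, -0.91 and -0.89 in treated rats. All treated arrays were below all corn oil arrays. The log2 change was -0.37 ± 0.10, a 1.29-fold lower level (95% interval -0.61 to -0.12, adjusted p = 0.144 by limma). Its 3 probes had changes between -0.37 and -0.29, but only on the brightest were the groups without overlap. The dimmest, with a change of -0.30, passed the filter through the corn oil group alone. That filter partly required its lower treated mean. The mean over the 3 probes, which includes it, had an unadjusted p of 0.133 by limma. Type VI collagen forms beaded filaments around cells, and Col6a2 had levels of 2.13, 2.18 and 2.23 in corn oil rats and 1.91, 2.12 and 2.00 in treated rats. The groups did not overlap, but lay only 0.0080 apart, and the change of -0.17 ± 0.09 had an adjusted p = 0.315 by limma.

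Among basement membrane genes, the collagen IV chain Col4a1 and the laminin chain Lamc1 were lower on every treated array, and the collagen XVIII chain was not. Col4a1, which forms the network collagen of most basement membranes with Col4a2, had levels of 4.52, 4.36 and 4.65 in corn oil rats and 4.24, 4.14 and 4.17 in treated rats. The treated animals lay within 0.10 of one another and at least 0.12 below every corn oil animal. The log2 change was -0.33 ± 0.10, a 1.25-fold lower level (95% interval -0.56 to -0.09, adjusted p = 0.160 by limma), and without corn oil replicate 3 the unadjusted p was 0.0605. The 4 probes of Col4a1 disagreed: 3 had changes of -0.57, -0.45 and -0.33, and the remaining 1 had a change of 0.49, with levels of 2.70, 3.45 and 3.09 in corn oil rats and 3.56, 3.50 and 3.66 in treated rats. On each of the 4 probes the groups did not overlap, so the direction for Col4a1 depends on the probe. Lamc1, the gamma 1 chain shared by most laminins, had levels of 2.24, 1.97 and 2.17 in corn oil rats and 1.97, 1.59 and 1.85 in treated rats. Its highest treated level was 0.0017 below the lowest corn oil level, and the change of -0.33 ± 0.13 (adjusted p = 0.223 by limma) did not keep an unadjusted p under 0.05 in 6 of 17 alternatives, among them leaving out corn oil replicate 1 or 3 or treated replicate 2 or 3. All 3 Lamc1 probes had a change below 0, from -0.45 to -0.26. Col18a1, whose C-terminal fragment is endostatin, had a change of 0.08 ± 0.11, with corn oil levels between 2.33 and 2.54 and treated levels between 2.33 and 2.66.

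Col4a1 and Col4a2 are transcribed in opposite directions from starts 77 bases apart in RefSeq, and Col4a2 had no matched probe, so the stretch that they share is given (GRCr8, chr16:84885521-84885596, plus strand, the 76 bases between the starts).
Col4a1 and Col4a2 intergenic promoter: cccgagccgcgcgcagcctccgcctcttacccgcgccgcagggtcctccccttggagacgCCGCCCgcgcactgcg
It held 1 match to GGGCGG (capitals, reverse strand) and no match to the other motifs, where 18.1% of all promoters held GGGCGG in a window of 76 bases. The stretch was 78.9% G and C.

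The glycoproteins of the matrix showed small changes apart from Tnc. Fibronectin, Fn1, a scaffold on which collagen is assembled, had levels of 1.25, 0.82 and 1.00 in corn oil rats and 0.89, 1.04 and 0.72 in treated rats, and its change was -0.14 ± 0.14. The groups overlapped, and its 3 probes had changes of -0.14, -0.25 and -0.81, the last of these on a dim probe. That probe was well above background on 3 corn oil arrays and 1 treated array. It passed the filter through the corn oil group alone, which partly required its lower treated mean. The mean over the 3 probes, which includes it, had a change of -0.40, with an unadjusted p of 0.0158 by limma. Sparc, a collagen-binding secreted protein, had corn oil levels of 5.75, 5.34 and 5.52 and treated levels of 5.12, 5.71 and 5.57 (change -0.07 ± 0.19), again with treated replicate 1 lowest. The microfibril protein fibrillin 1, Fbn1, had a change of -0.31 ± 0.15 (adjusted p = 0.29 by limma), and its dimmer probe had a change of 0.0013. Tnc, a glycoprotein known for its induction in wounds and injured kidney, had levels of -4.78, -6.06 and -5.60 in corn oil rats and -4.69, -3.46 and -5.08 in treated rats. Treated replicate 2 stood highest, the groups overlapped, and the change was 1.07 ± 0.50 (95% interval -0.14 to 2.28, adjusted p = 0.270 by limma). Tnc passed the filter through the treated group alone, so its higher treated mean was partly required by that filter.

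In the small proteoglycans and the cross-linking enzymes the treated animals differed more from one another than the corn oil animals did. Decorin, Dcn, which binds collagen fibrils and transforming growth factor beta, had levels of 2.44, 2.49 and 2.34 in corn oil rats and 1.97, 3.32 and 2.78 in treated rats. The corn oil animals spanned 0.15 and the treated animals 1.35, from well below to well above them, and the change was 0.26 ± 0.32 (95% interval -0.53 to 1.05). Biglycan, Bgn, a related proteoglycan, had levels of 5.12, 5.08 and 4.997 in corn oil rats and 4.74, 5.51 and 5.15 in treated rats (change 0.07 ± 0.19). Its order among treated animals was that of Dcn, and its dimmer probe did not show it: there treated replicates 1 and 2 were at 0.04 and 0.05 and treated replicate 3 at 0.98. The lysyl oxidase-like enzymes Loxl1 and Loxl2, which cross-link elastin and collagen, had changes of 0.04 ± 0.23 and 0.11 ± 0.23. Loxl1 levels were 2.36, 2.19 and 2.44 in corn oil rats and 1.94, 2.85 and 2.32 in treated rats, so treated replicates 1 and 2 again enclosed every other animal.

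Among the remodelling genes, Timp3 had the lowest p of the 26. It encodes a tissue inhibitor of metalloproteinases that binds to the matrix and is abundant in kidney. Timp3 levels were 2.01, 1.88 and 1.81 in corn oil rats and 1.34, 1.57 and 1.27 in treated rats. Every treated animal was below every corn oil animal, with a gap of 0.24 between the groups against ranges of 0.21 and 0.30 within them. The log2 change was -0.51 ± 0.11, a 1.42-fold lower level (95% interval -0.78 to -0.24, adjusted p = 0.123 by limma). The unadjusted p was at most 0.0150 in each of the 17 alternatives, with changes from -0.83 to -0.45, and the adjusted p was above 0.05 in all of them, the lowest being 0.0838. Only 1 probe measured Timp3. The metalloproteinases Mmp2 (gelatinase A) and Mmp14, which activates pro-Mmp2 at the cell surface, had changes of 0.19 ± 0.27 and -0.14 ± 0.14, with overlapping groups.

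As Timp3 had the widest gap between groups of the 26 genes, the 200 bases before its start are shown (RefSeq, GRCr8, chr7:19459559-19459758, minus strand), with capitals for the same motifs.
Timp3 promoter: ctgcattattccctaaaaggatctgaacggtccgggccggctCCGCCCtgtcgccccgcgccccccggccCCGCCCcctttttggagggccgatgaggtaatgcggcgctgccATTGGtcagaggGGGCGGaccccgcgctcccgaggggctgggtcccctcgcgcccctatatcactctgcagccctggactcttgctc
It held 3 matches to GGGCGG, which Sp1-type factors bind, where 5.59% of all promoters had 3 or more in such a window, and 1 match to CCAAT (29.2% of all promoters had at least 1). It had no match to the TEAD core or the TATA box, unlike the Ccn2 stretch above, and was 69.0% G and C against 57.0% for Ccn2.

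The contractile genes mark myofibroblasts and also the smooth muscle of vessel walls. Smooth muscle actin, Acta2, had levels of -0.93, -1.11 and -1.10 in corn oil rats and -1.17, -0.83 and -0.87 in treated rats, with a change of 0.09 ± 0.12. Transgelin, Tagln, an actin-binding protein, had levels of 0.46, 0.11 and -0.0044 in corn oil rats and -0.64, 0.92 and 0.54 in treated rats. Its treated range of 1.55 was the widest of the genes well above background on all 6 arrays, and the change of 0.08 ± 0.40 had an interval from -0.88 to 1.05. The receptor Pdgfra, a fibroblast marker, had levels of 2.15, 2.18 and 2.12 in corn oil rats and 2.28, 2.36 and 2.30 in treated rats. It was the gene whose treated arrays all lay above the corn oil arrays, and its change was 0.16 ± 0.07, a 1.12-fold higher level (adjusted p = 0.256 by limma), against -0.16 with spike-in scaling. Its relative Pdgfrb, found on pericytes and mesangial cells, had levels of 0.70, 0.52 and 0.75 in corn oil rats and 0.41, 0.92 and 0.79 in treated rats (change 0.05 ± 0.15), with treated replicates 1 and 2 at the extremes.

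The treated animals differed from one another more than the corn oil animals did in most of these genes. The treated range exceeded the corn oil range in 24 of the 26 genes, against 67.8% of all genes tested, and the median range was 0.552 in treated and 0.261 in corn oil rats, against 0.320 and 0.200 over all genes. Treated replicate 1 was the lowest of the 6 arrays for 17 of the 26 (65.4%, against 16.8% of all genes), treated replicate 2 the highest for 14 (53.8%, against 35.8%), and 17 followed the order of replicate 1, then 3, then 2 (65.4%, against 34%). These counts were noticed in the data and have no test. The genes share their arrays and partly their cell types, so they are not independent. Taken as the distance of each array from the mean of the corn oil animals, the median over the 26 genes was 0.11, -0.11 and -0.01 on the corn oil arrays and -0.34, 0.19 and 0.04 on the treated arrays. Over all genes tested it was 0.02, 0.09 and 0.05 on the treated arrays.

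**Figure D2:**
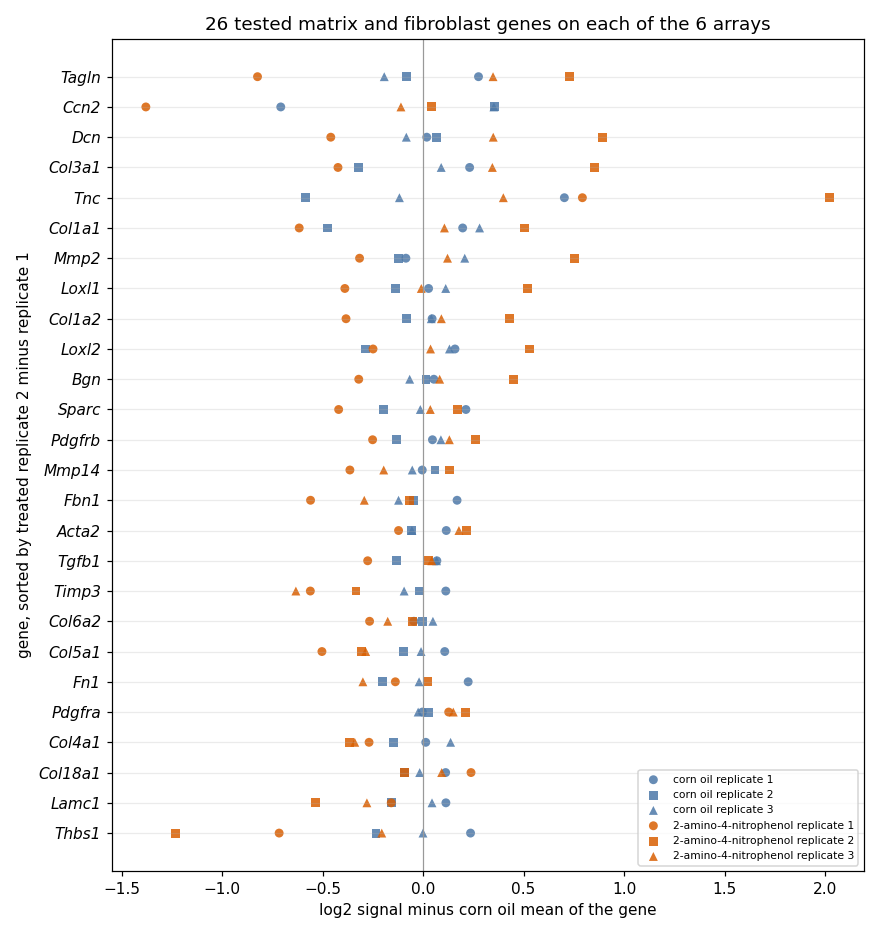
Log2 signal on each array minus the corn oil mean of the gene (horizontal axis) for the 26 tested genes, with blue symbols for corn oil and orange for 2-amino-4-nitrophenol animals and genes sorted by treated replicate 2 minus replicate 1. In most upper rows treated replicate 1 (circle) lies left and treated replicate 2 (square) right of the corn oil animals, by 1.55 between them for Tagln and 1.35 for Dcn. Exceptions there are Ccn2, with treated replicate 2 left of corn oil replicates 2 and 3, and Tnc, with treated replicate 1 right of every corn oil animal. In Loxl2 treated replicate 1 lies right of corn oil replicate 2. In Timp3, Col5a1, Col4a1 and Lamc1 all orange symbols lie left of all blue ones.

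The distance between treated replicates 2 and 1 was 2.34-fold for the dim Tnc. Among the genes well above background on all 6 arrays it was 2.94-fold for Tagln, 2.68-fold for Ccn2, 2.56-fold for Dcn, 2.42-fold for Col3a1, 2.18-fold for Col1a1 and 2.10-fold for Mmp2. These are secreted collagens, a proteoglycan, a protease, a matricellular protein and a contractile protein, so the distance was not limited to a single role. In the basement membrane genes Col4a1, Lamc1 and Col18a1 the order was absent. On its brightest probe each was lower in treated replicate 2 than in replicate 1, by 0.10, 0.38 and 0.33. Thbs1 was lower in treated replicate 2 as well, by 0.52. A further probe of Col4a1 and of Lamc1 was higher in treated replicate 2, by 0.02 and 0.13. The related basement membrane gene Col4a4 did follow the order, with levels of 1.68, 2.49 and 2.01 on treated replicates 1, 2 and 3. Outside this class the distance was small in Pdgfra (0.08), Fn1 (0.16), Col5a1 (0.20), Col6a2 (0.21) and Timp3 (0.23). Among 20 further probes of 14 of the genes, 17 had the same sign of this distance as the brightest probe. The other 2 Col1a1 probes gave 1.47 and 0.49, the other Col1a2 probe 0.87, the other Loxl1 probe 1.53 and the other Mmp2 probe 1.48. A dim Fn1 probe had the opposite sign, at -1.23, and the dimmer Bgn probe gave 0.005, against 0.77 on the brightest. Tagln, Ccn2, Dcn and Col3a1 had only 1 probe each.

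**Figure D3:**
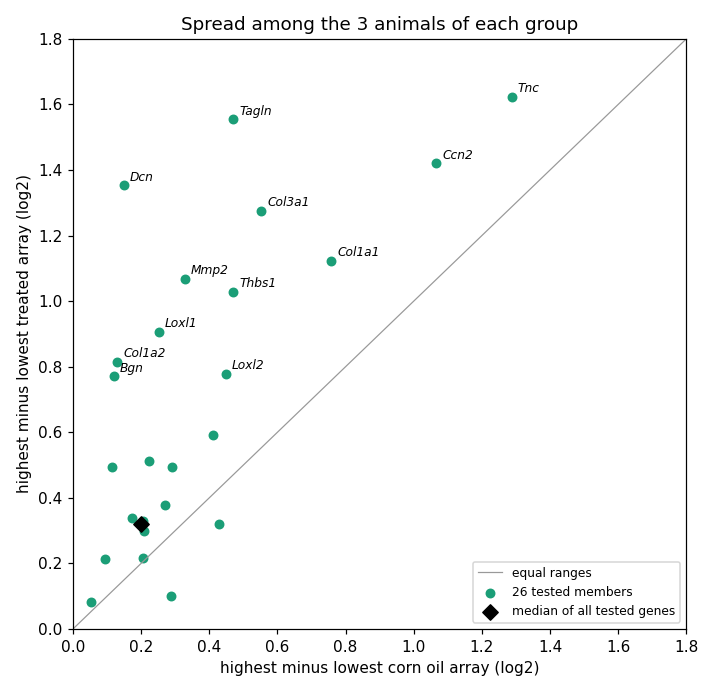
Highest minus lowest array among the 3 treated animals (vertical axis, log2) against the same for the 3 corn oil animals (horizontal axis) for the 26 tested genes (green), with the median of all genes tested (diamond) and the line of equal ranges. All but Col4a1 and Fn1 lie above the line, and Dcn and Tagln lie farthest from it.

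The order on the treated arrays depended in part on the scaling. With normexp background correction, quantile normalization or median scaling, treated replicate 1 was lowest in 16 to 17 of the 26 genes (14.9% to 18.5% of all genes). The order was seen in 16 to 17 (29% to 37.7% of all genes). Scaled on spike-in controls, treated replicate 1 was lowest in 12 (5.35% of all genes) and replicate 2 highest in 2 (2.09%), the order was seen in 9 (4.07%), and the treated range was the larger in 10 (65.8%). That scaling moved the median log2 change of all genes from 0.04 to -0.28.

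A single animal decided several values. Without treated replicate 1, Dcn had a log2 change of 0.62 ± 0.18 (adjusted p = 0.0938 by limma), Col3a1 0.60 ± 0.23 (adjusted p = 0.156) and Tagln 0.54 ± 0.19 (adjusted p = 0.136), and 13 of the 26 genes had groups that did not overlap, where 50.4% of all genes did. Without treated replicate 2, 6 genes had a lower level at an unadjusted p under 0.05 (6.98% of all genes did), Col6a2, Fbn1 and Mmp14 among them, and the median change was -0.20. Col3a1, Dcn and Tagln then had changes of -0.04, -0.06 and -0.24, so the direction of these 3 genes depended on which treated animals were included. Timp3 and Col5a1 had an unadjusted p under 0.05 whichever of the 6 arrays was left out.

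Markers of the cells that make this matrix varied over the same arrays. Of 9 fibroblast markers, 7 were tested. Their median relative to corn oil was -0.38, 0.51 and 0.34 on treated replicates 1, 2 and 3, and the log2 of their summed signal was 4.64 to 4.79 in corn oil rats and 4.42, 5.29 and 4.93 in treated rats. Since 6 of the 9 are themselves among the genes described, the other tested ones are given alone. Tcf21, a transcription factor of stromal precursors, had levels of -0.09, -0.33 and -0.32 in corn oil rats and -0.27, 0.49 and 0.12 in treated rats, and Pi16, a marker of fibroblasts around vessels, had levels of -1.37, -1.17 and -1.21, and of -1.23, -1.0003 and -0.57. In both genes treated replicate 1 lay within the corn oil range and treated replicates 2 and 3 lay above it.

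Of 8 smooth muscle and pericyte markers, none of them among the genes described, 7 were tested. Their medians were 0.26, -0.18 and -0.02 on the corn oil arrays and -0.33, 0.22 and 0.16 on the treated arrays. Treated replicate 1 was thus below every corn oil array, and treated replicates 2 and 3 lay within the corn oil range. The summed log2 signals of this list were 4.70 to 4.84 in corn oil rats and 4.65, 5.12 and 4.93 in treated rats. The 4 mesangial markers, of which 1 (Pdgfrb) is among the genes described, had medians of -0.22, 0.15 and 0.02 on the treated arrays. Of the 4, Gata3 went the other way, with levels of -0.37, -0.83 and -0.63 on treated replicates 1, 2 and 3. Over the 6 arrays the median of the endothelial list (8 genes) ranged from -0.04 to 0.04 and that of the proximal tubule list (6 genes) from -0.12 to 0.06. The endothelial median covered genes that moved in opposite ways. Pecam1, Cdh5, Emcn and Ehd3 rose in the order of treated replicates 1, 3 and 2, Kdr, Tek and Flt1 fell in it, and Tie1 did neither. The podocyte list (5 genes) reached -0.23 on treated replicate 3, and the 7 tested leukocyte markers 0.22 on treated replicate 2. The 3 tested cell division genes (Cdk1, Ccnb1 and Birc5) had medians of 0.49, -0.74 and 0.18 on the corn oil arrays and -0.02, 1.78 and 0.09 on the treated arrays, so that treated replicate 2 stood highest there too. Their part in the values of the matrix genes was not tested.

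**Figure D4:**
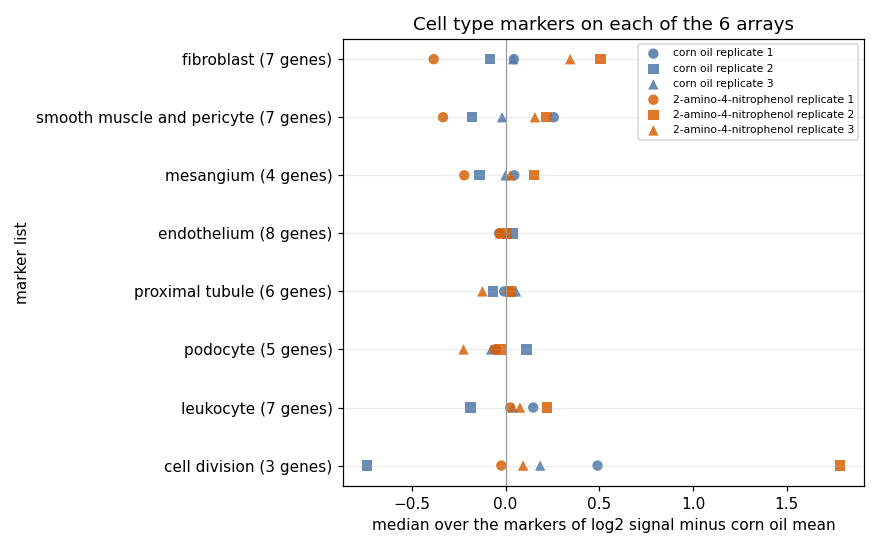
Median over each marker list of the log2 signal minus the corn oil mean (horizontal axis) on each array, with blue symbols for corn oil and orange for 2-amino-4-nitrophenol animals. The fibroblast, smooth muscle and mesangial lists have treated replicate 1 at -0.38, -0.33 and -0.22 and treated replicate 2 at 0.51, 0.22 and 0.15. In the smooth muscle list corn oil replicate 1, at 0.26, lies right of treated replicate 2. Cell division genes have treated replicate 2 at 1.78.

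Other genes of these pathways were taken from lists of 124 genes, of which 94 were tested. At an unadjusted p under 0.05, 11 had a higher and 7 a lower level in treated cortex (19.1% of those tested, against 21.6% of all genes), and 0 passed the adjusted threshold of limma. The closest was the protease gene Mep1b, the beta subunit of meprin of the proximal tubule brush border. Mep1b levels were 2.06, 2.10 and 1.76 in corn oil rats and 3.72, 3.60 and 4.37 in treated rats. The groups lay 1.503 apart, and the level was 3.79-fold higher, a log2 change of 1.92 ± 0.22 (adjusted p = 0.0799 by limma). Among the other 14 tested proteases and inhibitors, the lysosomal Ctsl (0.47 ± 0.10) and the membrane-bound Mmp15 (0.40 ± 0.15) were higher, and the shedding protease Adam17 (-0.19 ± 0.08) lower, at an unadjusted p under 0.05. With Mep1b, 3 of 15 were higher (14.3% of all genes) and 1 was lower (7.29% of all genes).

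Further basement membrane genes had lower means for the most part. Of 8 tested, 4 had a lower level at an unadjusted p under 0.05 (7.29% of all genes did) and 0 a higher one, and their median log2 change was -0.35, which ranged from -0.67 with spike-in scaling to -0.20 without treated replicate 2. The count of 4 became 1 when replicate 3 of either group was left out, and 2 when corn oil replicate 1, corn oil replicate 2 or treated replicate 2 was, and also 2 with median scaling, without a filter and with the slide block. Lamb3, a laminin chain of epithelia, had levels of -2.36, -2.13 and -2.28 in corn oil rats and -2.84, -2.71 and -2.65 in treated rats, with no overlap and a change of -0.48 ± 0.10 (adjusted p = 0.119 by limma). Lamb2, the beta chain of glomerular laminin, had levels of 1.32, 1.5003 and 1.36, and of 1.24, 0.83 and 1.05, with a change of -0.35 ± 0.13 (adjusted p = 0.191 by limma). Col4a4, a chain of the collagen IV network of the glomerular basement membrane, had a change of -0.54 ± 0.22 with overlapping groups, and Lama1, a laminin alpha chain, one of -0.50 ± 0.20. The basement membrane linker nidogen 2, Nid2, had a change of 0.10 ± 0.12. The podocyte markers, whose cells make part of this matrix, had medians of -0.06, -0.03 and -0.23 on the treated arrays, and their part in the result was not tested.

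In the 15 tested genes of other fibrillar matrix and small leucine-rich proteins, an unadjusted p under 0.05 was reached by 3 with a higher level (14.3% of all genes did so) and 0 with a lower one, and the median was 0.26, against 0.0082 without treated replicate 2 and -0.06 with spike-in scaling. Leaving out corn oil replicate 1, corn oil replicate 3 or treated replicate 2 reduced the count of 3 to 1, and spike-in scaling to 0 (with 1 lower). The genes were Efemp2, an elastic fibre protein (0.35 ± 0.10), the proteoglycan osteoglycin, Ogn (0.61 ± 0.22), and Col14a1, a fibril-associated collagen (0.76 ± 0.28). Ogn levels were 1.22, 1.16 and 1.13 in corn oil rats and 1.27, 1.91 and 2.15 in treated rats, so treated replicate 1 was the one nearest to the corn oil animals. Of 19 tested genes of transforming growth factor beta signalling, 2 were higher, which is not above the 14.3% of all genes, and 0 lower: the inhibitory Smad6 (0.27 ± 0.09) and the induced matrix protein Tgfbi (0.53 ± 0.21). No gene of this list was higher at that p without corn oil replicate 1, corn oil replicate 3 or treated replicate 3. The replicate block also gave 0 higher, with 1 lower (6.59% of all genes). Spike-in scaling gave 0 higher and 4 lower (20.9% of all genes), with a median of -0.35 for the list. The receptor Tgfbr1 had a change of -0.22 ± 0.09 (adjusted p = 0.243 by limma). Collagen processing genes numbered 14 tested, with the prolyl hydroxylase P4ha2 (0.58 ± 0.21) and the procollagen proteinase enhancer Pcolce (0.36 ± 0.14) higher and 0 lower, the same share as the 14.3% of all genes. That count was 0 with quantile normalization, with spike-in scaling, with the slide block and without corn oil replicate 2 or treated replicate 3. With spike-in scaling 4 of the 14 were lower (20.9% of all genes), and the slide block gave 1 lower (5.45% of all genes). Of 12 tested integrins and matrix receptors, 1 was higher (14.3% of all genes) and 2 were lower (7.29% of all genes). The syndecan Sdc1 was higher (0.62 ± 0.13), and Sdc4 (-0.34 ± 0.08) and the epithelial integrin Itgb6 (-0.35 ± 0.10) were lower. All were without overlap between groups, as were 30.2% of all genes. In the 11 tested genes of the PDGF and fibroblast axis 0 had an unadjusted p under 0.05 by limma, where 21.6% of all genes did.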

How the data were processed

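Renal cortex RNA of 6 rats was measured on 1-colour Agilent arrays of 62976 spots. Agilent Feature Extraction (10.7.1.1 per the file headers, 10.7 per the submitters' processing notes) gave the deposited spot intensity, from which background and spatial trend had been removed. The authors' deposited value table holds each intensity as a ratio to the 75th percentile of its array (column medians 0.103 to 0.106). Over 36961 probes, each of its columns held the values of a scanner file with another replicate number, within the same group, so replicate numbers follow the scanner files.

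The log2 processed signal minus the array's 75th percentile was compared between groups in R 4.3.3 by limma 3.58.1 (lmFit, eBayes), with no blocking term. Outlier spots removed 64 probes, and a probe was kept where every array of 1 group or both measured it well above background. Probes were named through their RefSeq accession (27460 of 61657, or 44.5%, for 15284 genes) and the brightest kept probe stood for a gene. The Benjamini-Hochberg adjustment ran over 11748 genes. The errors given with changes are standard errors of limma, and p-values measure the spread between animals. The replicate numbers are not known to pair animals. The deviations of same-numbered arrays correlated at 0.0065, -0.0502 and -0.0320. With so few arrays per group, these values cannot tell whether animals were paired. The same comparison was tested on simulated data.

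Values on all 6 arrays are given for genes with an unadjusted p under 0.05, without overlap between groups or with a treated range of at least 1.5, and for a fixed set; Bgn, Loxl1 and the further probes were added after their values were seen. Related genes are named if among the 3 with the lowest p of their list; Adam17, Lama1 and Nid2 were added afterwards. The members and all lists were chosen with earlier results of these data known. Promoters come from RefSeq (GRCr8), which listed 24 of the 37 genes. Alternatives were normexp (offset 50), quantile, median and spike-in (7 probes) scaling, the value table, other filters, the mean over probes, slide and replicate blocks, trend and robust settings, and leaving out each array.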

Additional observations from a re-analysis of the deposited data

How the results depend on the processing

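No gene of the 26 passed the adjusted threshold of limma in any of 17 alternatives, and all gave 0. Of 440 values of single genes, 396 kept their sign and 44, in 16 genes, did not. Genes higher at an unadjusted p under 0.05 numbered 0 (14.3% of all genes), against 2 with normexp (18.0% of all genes) and 1 with median scaling (16.5%). Without a filter they numbered 2 (17.6% of all genes), the dim Lum and Postn, and with trend and robust settings 1 (16.2%). When an array was left out they numbered 0 to 3, where 8.5% to 20.0% of all genes were higher. Genes lower numbered 5 (7.29% of all genes), against 9 with spike-in scaling (20.9% of all genes) and 2 (without corn oil replicate 3, 4.55% of all genes) to 6 (without treated replicate 2, 6.98%) when an array was left out. Genes without overlap numbered 6 (30.2% of all genes), and 7 to 13 when an array was left out, where 35.6% to 50.4% of all genes did not overlap. The median change of 0.02 was -0.30 with spike-in scaling and -0.20 to 0.14 when an array was left out. Related genes numbered 18, and 10 to 19 when an array was left out. All genes past the adjusted threshold numbered 3, against 56 with normexp, 4 with quantile normalization, 69 with trend and robust settings, 8 with spike-in scaling, 0 without a filter, with the mean over probes and with either block, and 0 to 70 when an array was left out (70 without treated replicate 2, 21 without treated replicate 1). Of genes at an unadjusted p under 0.05, 33.8% were lower, against 22.0% with normexp, 53.7% with quantile normalization and 95.3% with spike-in scaling. Spike-in scaling was chosen after the data were seen. The cause of these differences was not tested.

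With the replicate block, 6 genes were lower (6.59% of all genes), Ccn2 being added (-0.48, adjusted p = 0.255 by limma), and 0 passed the adjusted threshold. The slide block uses the same information as leaving out corn oil replicate 2.

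Changes with another sign were, with normexp, Col1a2 -0.072 and Thbs1 0.037. With quantile normalization they were Col1a2 -0.10, Col18a1 -0.017, Bgn -0.14 and Loxl1 -0.066. With median scaling it was Col1a1 0.030, with the mean over probes Loxl1 -0.044, and with the slide block Loxl1 -0.030, Loxl2 -0.039 and Pdgfrb -0.021. With spike-in scaling they were Col1a2 -0.27, Col3a1 -0.062, Col18a1 -0.24, Bgn -0.25, Dcn -0.059, Loxl1 -0.28, Loxl2 -0.21, Mmp2 -0.13, Acta2 -0.23, Tagln -0.23, Pdgfra -0.16 and Pdgfrb -0.27. Leaving out an array gave ranges of -0.26 to 0.31 for Col1a1, -0.15 to 0.26 for Col1a2, -0.040 to 0.60 for Col3a1, -0.0001 to 0.17 for Col18a1, -0.19 to 0.10 for Sparc, -0.14 to 0.035 for Tgfb1, -0.12 to 0.27 for Bgn, -0.056 to 0.62 for Dcn, -0.20 to 0.25 for Loxl1, -0.11 to 0.28 for Loxl2, -0.10 to 0.44 for Mmp2, -0.24 to 0.54 for Tagln and -0.061 to 0.20 for Pdgfrb. Dim probes (Tnc, Thbs1) are limited by their signal over background.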

Other observations

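Among genes listed as controls for other tissues, albumin (Alb), a secreted liver protein, was well above background on all 6 arrays and varied widely: its log2 levels were 0.81, 2.24 and -0.34 in corn oil rats and -1.09, 0.92 and 1.62 in treated rats. The groups overlapped. The fat cell genes Adipoq and Cfd were also well above background on all 6 arrays. Adipoq levels were -0.12, 0.24 and -0.03 in corn oil rats and 0.53, 0.47 and -0.44 in treated rats, an order that the matrix genes did not follow.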
